A study of Homo sapiens with 4 samples.

Results

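The genes described here supply and spend cysteine, the sulphur amino acid that melanocytes need to make pheomelanin, the red to yellow pigment. There are 10 of them, chosen by name: SLC7A11, SLC3A2, CTNS, MFSD12, GCLC, GCLM, GSS, GGT1, CTH and CBS. Every peak whose deposited nearest gene is one of these names was taken, at any distance. This gave 20 of the 32479 peaks of replicate 1 and 24 of the 40494 peaks of replicate 2. Peaks were taken by gene name alone, with no use of the peak score. The genes themselves were chosen with earlier results of these data known. The peaks come from ChIP-seq, the sequencing of DNA recovered by chromatin immunoprecipitation, in 501mel, an established human melanoma line kept in RPMI-1640 medium with fetal bovine serum. The 2 ChIP samples carry TBX3-3xHA, the T-box transcription factor TBX3 with an HA peptide tag, and were precipitated with the anti-HA antibody 12CA5. The peaks therefore describe the tagged protein in 1 cell line, and the labels give no level of it relative to untagged TBX3. The 2 input samples, chromatin that was not precipitated, come from the same line and were not analysed here, so no background level stands beside the peaks. The title of the series links TBX3 to loss of MC1R signalling and to the making of pheomelanin, and the question here is where its peaks lie around genes that provide cysteine for that pigment.

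Pheomelanin forms when dopaquinone, the oxidised product of tyrosinase, reacts with cysteine, whereas eumelanin forms when cysteine is scarce. Cells take up cystine, the oxidised form of cysteine, through system xc-, which SLC7A11 and SLC3A2 build together. They also make cysteine from homocysteine through CBS and CTH. Cysteine enters glutathione through the enzymes encoded by GCLC, GCLM and GSS, and GGT1 begins the breakdown of glutathione outside the cell. MFSD12 is needed to bring cysteine into melanosomes and lysosomes, and CTNS carries cystine out of them.

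Of the 10 genes, 7 had at least 1 summit in replicate 1 and 6 had one in replicate 2. CTNS, MFSD12 and GGT1 had no summit in either list, and GSS had a single one, in replicate 1. The background for these counts is high, because 34.1% of the 19970 protein-coding genes had a summit at any distance in replicate 1 and 38.4% in replicate 2. A summit is the single base at which a peak was highest, and it is called shared when the other replicate had a summit within 200 bp. A shared region was present for 6 of the 10 genes, SLC7A11, SLC3A2, GCLC, GCLM, CTH and CBS, against 28.6% of all protein-coding genes. Within 10 kb of a transcription start site (TSS) only SLC7A11 and SLC3A2 had one, 2 of 10 genes against 10.1% of all. Within 1 kb it was SLC7A11 alone, against 2.99% of all, and within 100 kb all 6 genes, against 26.5%. The distances for CBS are to a start site 36.6 Mb from the RefSeq position of that gene, as described below. Without CBS, 5 of 9 genes had a shared region at any distance. Counts over 10 genes chosen with earlier results of these data known are a description, and no test was made on them.

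**Figure D1:**
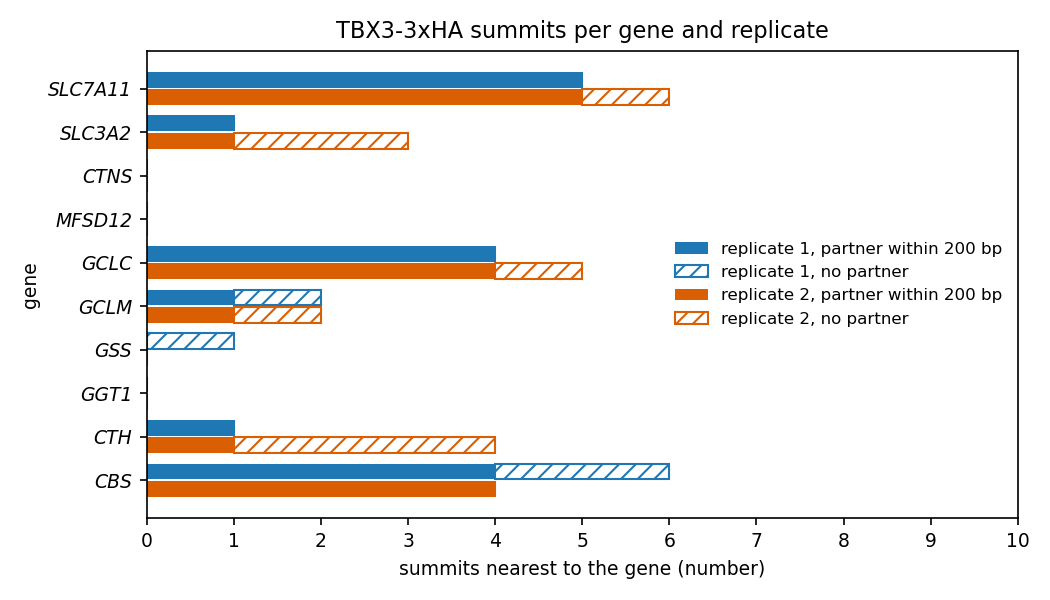
Number of summits (horizontal axis) whose nearest annotated gene is each of the 10 genes (vertical axis), with replicate 1 in blue and replicate 2 in orange. Filled bars are summits with a partner within 200 bp in the other list and hatched bars are summits without one. SLC7A11 has 5 shared regions, GCLC and CBS have 4 each, and CTNS, MFSD12 and GGT1 have no bar. The CBS bars count summits far from the RefSeq position of that gene.

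Sequence could be read for the promoters, taken from RefSeq on GRCh38.p14 as 250 bases before to 50 after each start. Of the 10 genes, 8 had an entry, with 14 start sites between them. The genes without one are SLC7A11 and GSS. A summit fell inside 1 of these 14 windows, at SLC3A2 in replicate 2 only. That window is shown first, chr11:62881449-62881748 on the plus strand. It is followed by the windows that hold the short T-box core, at CTNS (chr17:3636209-3636508, plus strand) and GGT1 (chr22:24602943-24603242, plus strand), 2 genes that had no summit. Capitals mark every match, on either strand, to the letters searched: AGGTGTGA and its core GGTGTG (T-box), CACGTG and CATGTG (boxes bound by MITF), TGACNNNGC (antioxidant response element core) and TGATGNAA (amino acid response element).
SLC3A2: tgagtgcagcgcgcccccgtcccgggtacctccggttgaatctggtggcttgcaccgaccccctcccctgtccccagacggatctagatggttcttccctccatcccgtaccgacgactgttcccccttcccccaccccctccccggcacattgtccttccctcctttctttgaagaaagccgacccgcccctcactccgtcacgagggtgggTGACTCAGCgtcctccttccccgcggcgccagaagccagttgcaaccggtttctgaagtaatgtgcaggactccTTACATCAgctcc
CTNS: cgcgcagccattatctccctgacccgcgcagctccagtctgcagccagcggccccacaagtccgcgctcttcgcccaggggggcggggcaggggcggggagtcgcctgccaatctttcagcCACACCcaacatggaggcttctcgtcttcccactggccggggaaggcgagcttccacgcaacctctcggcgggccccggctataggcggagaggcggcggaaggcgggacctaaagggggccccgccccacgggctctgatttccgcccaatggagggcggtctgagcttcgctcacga
GGT1: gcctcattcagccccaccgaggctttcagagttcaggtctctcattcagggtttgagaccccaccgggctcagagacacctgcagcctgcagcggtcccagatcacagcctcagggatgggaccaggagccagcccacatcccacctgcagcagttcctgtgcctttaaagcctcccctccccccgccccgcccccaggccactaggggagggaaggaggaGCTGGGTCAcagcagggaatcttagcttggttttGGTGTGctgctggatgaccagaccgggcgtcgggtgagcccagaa

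In the SLC3A2 window the replicate 2 summit is base 283, 32 bp after the start site. The window has no T-box core. Its 2 matches are TGACTCAGC at bases 214 to 222, before the start site, and TTACATCA at bases 288 to 295, close to the summit. The antioxidant response element is the sequence through which NRF2, the product of NFE2L2, acts on genes of the oxidative stress response, and the amino acid response element is known as a target of ATF4. At CTNS the core reads CACACC on the printed strand, at bases 122 to 127. At GGT1 it reads GGTGTG at bases 256 to 261, and the antioxidant core reads GCTGGGTCA at bases 222 to 230.

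Over the 14 windows, the full half-site AGGTGTGA occurred in 0, against 0.980% of all 35116 promoters of the table. The core GGTGTG, which is part of the half-site, occurred in 2 windows, against 16.8% of all. The antioxidant core occurred in 4 windows, 1 each of GCLM, SLC3A2, CBS and GGT1, against 13.3% of all. The amino acid element was in 1 window against 3.62%, CATGTG in 1 against 11.1% and CACGTG in 0 against 7.26%. Several windows belong to the same gene, so they are not independent. The matches describe letters in these windows and say nothing of the sequence beneath summits elsewhere, for which no genome was at hand.

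SLC7A11 encodes xCT, the subunit of system xc- that moves cystine into the cell in exchange for glutamate. It spans 138164097 to 138242349 on chromosome 4 (GRCh38.p14) and its start is at the upper end. The gene had 5 summits in replicate 1, all shared, and 6 in replicate 2, of which 5 were shared. This is the largest number of shared regions among the 10 genes, and 2.69% of protein-coding genes had 5 or more, a limit chosen after the count was seen.

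The regions nearest to the SLC7A11 start lie on either side of it. The first has summits at 138241488 in replicate 1 and 138241479 in replicate 2, in intron 1 of 11. It is 861 bp and 870 bp inside the gene, with scores of 32.1 and 28.0. The deposited score ranks peaks within its own list and its scale is not stated, so each is given as a percentile of its list, here 76.9 and 69.6. The second has summits at 138243594 and 138243606 in intergenic sequence, 1245 bp and 1257 bp upstream of the start. Its scores were 21.2 and 50.0, percentiles 66.1 and 81.7. Having 2 shared regions within 2 kb of a start, as SLC7A11 does, was found for 0.376% of protein-coding genes, again with the limit set after seeing the gene. Neither summit lies in the window from 250 bp before to 50 bp after the start.

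Further inside SLC7A11, intron 5 held another pair of neighbouring regions. The stronger had summits at 138217724 and 138217742, 24625 bp and 24607 bp from the start. Its scores of 36.3 and 62.0 were the highest of the gene in each list, percentiles 79.4 and 85.2. The weaker had summits at 138216884 and 138216695, with scores of 4.50 and 9.86 (percentiles 10.7 and 38.1). These 2 summits were 189 bp apart, just inside the limit for a shared region, while the other 4 pairs of the gene were 9 to 19 bp apart.

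The fifth shared region of SLC7A11 lies 17708 bp upstream, with summits at 138260057 and 138260038 and scores of 12.4 and 33.2 (percentiles 49.1 and 73.7). In replicate 2 alone a summit at 138240667 in intron 1, 1682 bp from the start, had a score of 6.91. The lists name other genes for 2 more shared regions within 100 kb of the gene, those of the non-coding genes LINC00616 and LINC00499, which gives 7 in all. The median over protein-coding genes was 1 such region, with quartiles of 0 and 3. Of these genes 4.35% had 7 or more, a limit again chosen after the count was seen. The window is the gene span plus 100 kb on each side, so it is wider for longer genes.

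**Figure D2:**
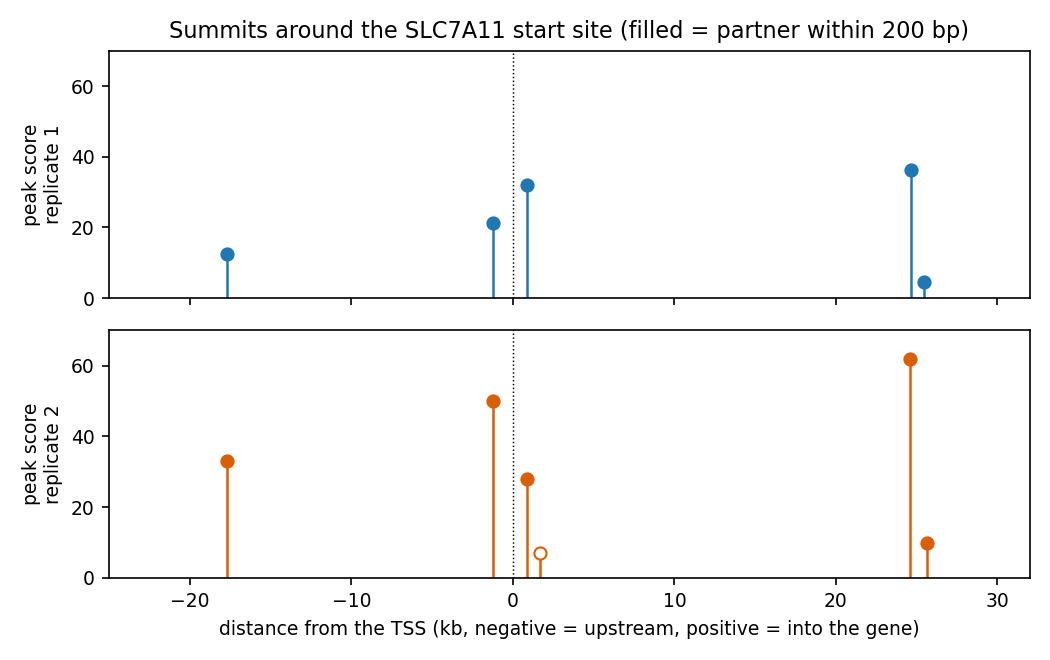
Summits around the SLC7A11 start site, by distance from the start in kb (horizontal axis) and deposited peak score (vertical axis), with replicate 1 above and replicate 2 below. Filled points have a partner within 200 bp. The same 5 places recur in both lists, with the highest score at the intron 5 region (36.3 and 62.0), and the open point is the intron 1 summit seen in replicate 2 alone.

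SLC3A2 encodes the heavy chain 4F2hc (CD98), which carries SLC7A11 and other light-chain transporters to the plasma membrane. It spans 62856109 to 62888860 on chromosome 11. Its shared region was weak, with summits at 62875843 and 62875862 and scores of 7.35 and 6.36 (percentiles 29.1 and 23.2). It lies in intron 3 of 11 within an AluSq2 element, 5029 bp and 5010 bp upstream of an internal start site.

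Replicate 2 had 2 further SLC3A2 summits that replicate 1 lacked. The summit at 62881731, in the promoter window printed above, had a score of 11.5 (percentile 44.5). The summit at 62890672, 8973 bp from that start and in an AluY element past the end of the gene, had a score of 16.4 (percentile 54.6). Near the SLC7A11 start the summits recurred in both lists, whereas the summit at the SLC3A2 promoter itself was in replicate 2 alone. The share of all genes with a summit so near a start in 1 list was not counted.

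The other 3 shared regions within 100 kb of SLC3A2 had higher scores and belong by distance to WDR74, CHRM1 and SLC22A6. At the WDR74 promoter, 15191 bp from the SLC3A2 span, both lists had a summit at 62840918 with scores of 115 and 160.0 (percentiles 95.1 and 95.5). At the CHRM1 promoter, 33052 bp away, summits at 62921912 and 62921910 had scores of 48.6 and 122.

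MFSD12 and CTNS, the transporters of the melanosome and lysosome membrane, had no summit named for them in either list. MFSD12 spans 3538275 to 3557586 on chromosome 19. The nearest shared region has summits at 3570916 and 3570891, 13330 bp and 13305 bp upstream of the MFSD12 start, with scores of 23.0 and 30.5 (percentiles 68.0 and 71.8). The lists assign it to HMG20B, whose start is 2029 bp and 2054 bp away. CTNS spans 3636459 to 3663103 on chromosome 17, and the nearest summits, at 3738793 and 3738763, were 75690 bp and 75660 bp from its end. They had scores of 15.2 and 11.1 and are named for HASPIN. A gene without a summit here is one for which none passed the authors' threshold and lay closest, at a read depth that is unknown.

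GCLC encodes the catalytic subunit of glutamate-cysteine ligase, the enzyme that joins glutamate to cysteine in the rate-limiting step of glutathione synthesis. It spans 53497341 to 53545101 on chromosome 6, with its start at the upper end. All 4 of its replicate 1 summits were shared, and replicate 2 had 5 summits. Among protein-coding genes 4.04% had 4 or more shared regions, a limit chosen after the count was seen. None of the GCLC regions lay within 10 kb of the start.

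The GCLC region with the highest scores is in the last intron (intron 14 of 14), with summits at 53499362 and 53499369. It is 45767 bp and 45760 bp from the start and near the 3′ end of the gene. The scores were 33.1 and 63.3, percentiles 77.4 and 85.5. Beyond the end of the gene, summits at 53487823 and 53487798 fell in an L1PA4 element with scores of 10.8 and 35.3 (percentiles 43.8 and 75.1). Summits at 53464984 and 53464965 fell in an L2a element with scores of 28.0 and 17.4 (percentiles 73.6 and 56.8). The pair at 53466025 and 53466091 had scores of 9.28 and 12.2. In replicate 2 alone a summit at 53512099, in intron 5 within an AluSz6 element, had a score of 15.6. The 4 regions named for GCLC are spread from the last intron to 32357 bp beyond the gene, all on the downstream side. On the upstream side, 90594 bp from the gene, a shared region named for LINC01564 had summits at 53635695 and 53635699. Its scores were 128.2 and 207.6 (percentiles 95.9 and 97.1), above those of every region named for GCLC.

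GCLM encodes the modifier subunit of the same ligase and lies at 93885199 to 93909430 on chromosome 1. Its 1 shared region has summits at 93993648 and 93993705, 84050 bp and 84107 bp upstream. They lie in the last intron of another gene, ABCA4, with scores of 17.7 and 35.5 (percentiles 61.2 and 75.3). Each list had 1 further summit that the other lacked, at 93979910 in replicate 1 (score 3.34) and at 93958088 in replicate 2 (score 4.28). No summit of either list was within 43606 bp of the gene, whichever gene the lists named.

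GSS encodes glutathione synthetase, which adds glycine to complete glutathione, and lies at 34928432 to 34956027 on chromosome 20. Its only summit, at 34920688 in replicate 1, had a score of 3.91 (percentile 6.94) and had no partner in replicate 2. It falls in exon 9 of 18 of ACSS2, 34947 bp from the GSS start. The nearest shared region, 20583 bp from the GSS span, is in an ACSS2 intron with scores of 14.6 and 11.1. Another shared region, 92786 bp from GSS in an intron of TRPC4AP, had scores of 222.8 and 278.5 (percentiles 98.6 and 98.3).

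GGT1 encodes a γ-glutamyltransferase of the cell surface that cleaves glutathione and so returns its cysteine to the cell. It spans 24583750 to 24628996 on chromosome 22 and had no summit in either list. The nearest summits were unshared, 61491 bp away in replicate 1 and 47487 bp away in replicate 2. A shared region 74328 bp from the gene, named for POM121L10P, had scores of 159.8 and 187.8 (percentiles 97.3 and 96.5). GGT1 has near-identical relatives on the same chromosome, and how reads that map to several places were handled is not given in the sources used here.

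CTH encodes cystathionine γ-lyase, which releases cysteine from cystathionine in the last step of transsulfuration. The gene lies at 70411268 to 70439851 on chromosome 1. It had the highest score of the 10 genes in both lists, at summits 70458360 and 70458318. The scores were 117 and 229, ranks 1551 and 979 and percentiles 95.2 and 97.6. The region is intergenic, 47142 bp and 47100 bp from the start and 18509 bp and 18467 bp beyond the end of the gene. CTH is the nearest gene only by distance, and the files do not link the region to any gene in another way. Replicate 2 had 3 more summits up to 76705 bp from the start, with scores of 6.83 to 15.6, and replicate 1 had none of them.

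CBS encodes cystathionine β-synthase, which makes cystathionine from homocysteine and serine in the step before CTH. Its summits need a caution that the name alone would hide. The RefSeq table places CBS at 43053191 to 43076873 on chromosome 21, while every CBS summit lies between 6369046 and 6428733 on that chromosome. The start site that the deposited distances imply is 6460082, 36.6 Mb from the gene in the table. As background, the hg38 assembly carries a near-identical second copy of CBS on the short arm of chromosome 21, which the table used here lists only as the synonym CBSL. No summit of either list was within 211255 bp of CBS at its table position. Whether the sequence under the CBS summits occurs at both placements was not examined. How reads that fit both copies were placed is also not given in the sources used here, so the summits cannot be assigned to either copy.

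At this second placement replicate 1 had 6 summits and replicate 2 had 4, and all 4 were shared. The strongest had summits at 6369046 and 6369068, in an LTR76 element and 91036 bp and 91014 bp from the implied start. Its scores were 19.3 and 33.2, percentiles 63.1 and 73.4. The closest to the implied start had summits at 6428733 and 6428705, 31349 bp and 31377 bp away, with scores of 11.1 and 22.7. Summits at 6374337 and 6374377 fell in LTR43-int sequence with scores of 14.4 and 15.8, and those at 6375163 and 6375155 scored 3.91 and 6.46. The summits of replicate 1 without a partner had scores of 4.86 and 6.92. Leaving CBS out, 5 of 9 genes had a shared region.

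**Figure D3:**
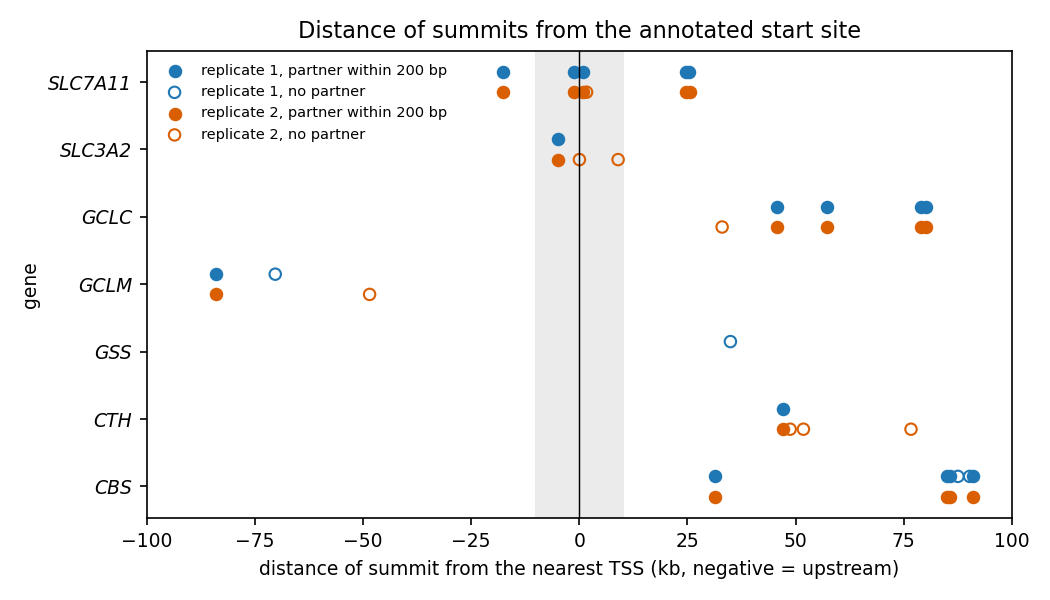
Distance of each summit from the nearest annotated TSS in kb (horizontal axis) for the genes that had a summit (vertical axis), with replicate 1 in blue and replicate 2 in orange. Filled points have a partner within 200 bp and the grey band spans 10 kb on either side of the start. Filled points fall in the band for SLC7A11 and SLC3A2 only, and the CBS distances refer to the second placement of that gene.

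Taking the summits of the 10 genes together, 16 of 20 in replicate 1 had a partner (80.0%, 95% Wilson interval 58.4% to 91.9%) and 16 of 24 in replicate 2 (66.7%, 46.7% to 82.0%). Over all peaks the shares were 69.9% and 56.1%, and both lie inside these intervals, which cover counting error only. Several summits belong to the same gene and the same 16 pairs enter both shares, so the summits are not independent. Because higher scores recur more often, the shares of all peaks in the same score deciles were also added up over these summits. They came to 13.3 for replicate 1 and 15.1 for replicate 2, against the 16 found in each. The 4 unpartnered summits of replicate 1 all scored below the median of their list, whereas in replicate 2 it was 4 of 8. With CBS left out the counts were 12 of 14 and 12 of 20.

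The 16 shared regions ranged widely in score. Their median percentile was 57.8 in replicate 1 and 71.5 in replicate 2, beside 63.6 and 70.5 over all 22702 shared regions. Without CBS the medians were 63.7 and 74.4. In both lists 10 of the 16 had a score at or above the list median (62.5%, against 62.8% of all shared regions), and only the CTH region was at or above the 90th percentile of both, against 12.4% of all. The summits of a pair were 20.5 bp apart at the median, beside 28 bp over all shared regions.

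**Figure D4:**
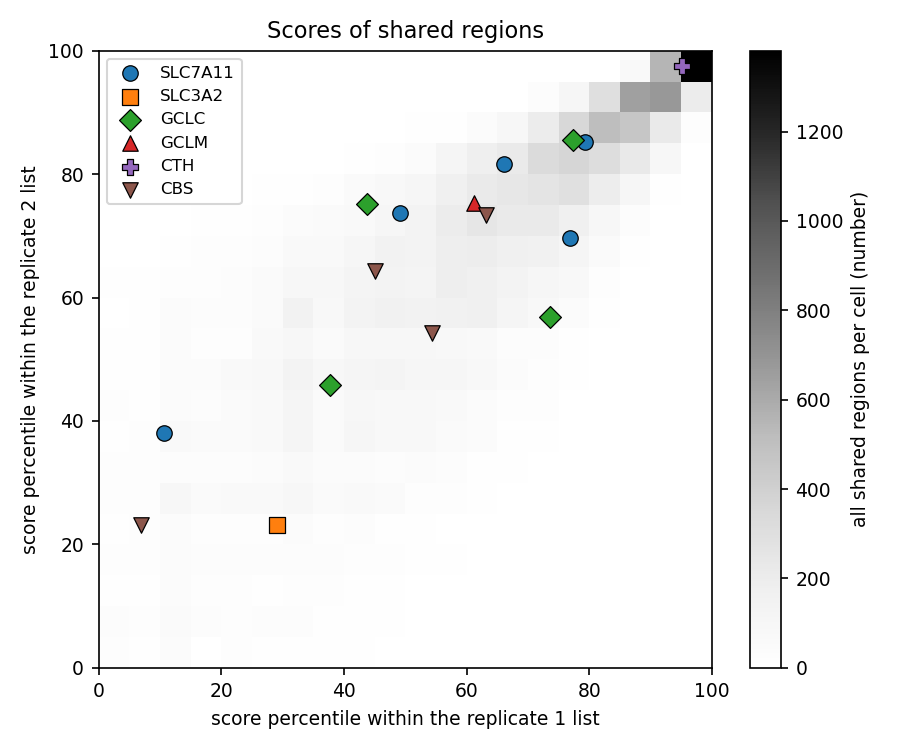
Score percentile within the replicate 1 list (horizontal axis) and within the replicate 2 list (vertical axis) for the 16 shared regions, with 1 symbol per gene, over grey cells that count all 22702 shared regions. The CTH region stands at 95.2 and 97.6, the SLC3A2 region at 29.1 and 23.2, and the lowest replicate 1 percentile is 6.94, at a CBS region.

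Most of the shared regions lie far from a start. Of the 16, 13 were more than 10 kb away, and the median distance was 46450 bp, beside 51090 bp over all shared regions. Intergenic sequence held 10 of them, against 53.2% of all shared regions, and introns held the other 6. An annotated repeat held 5 of the replicate 1 summits, against 41.7% of all. Of the 3 regions within 10 kb, 2 belong to SLC7A11 and 1 to SLC3A2, against 16.7% of all shared regions.

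A wider list of 45 genes of cysteine and glutathione metabolism gave the setting. A shared region was present for 12 of them at any distance (26.7%) and for 2 within 10 kb (4.44%), beside the 28.6% and 10.1% of all protein-coding genes. All 5 genes of cystine and cysteine transport had a shared region, whereas 7 of the other 40 did, a difference that was seen in these data and not tested. This class leaves out the transporters among the 10 genes, where SLC7A11 and SLC3A2 had a shared region but CTNS and MFSD12 had no summit. For SLC1A5, SLC7A9 and SLC1A1 the only shared region was 18152 bp, 39102 bp and 54803 bp from a start. Both genes with a region within 10 kb were transporters. SLC1A4, a carrier of neutral amino acids that include cysteine, had summits at 64985743 and 64985723 on chromosome 2, 2702 bp and 2722 bp upstream, with scores of 256 and 333 (percentiles 99.0 and 98.9). SLC3A1, the heavy chain of the cystine carrier of the kidney, had a summit at 44268155 in both lists, 7303 bp upstream, with scores of 12.8 and 22.2. The rule for naming asked for 3 genes, and only these 2 qualified.

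The other classes of the wider list are given beside the 28.6% of all protein-coding genes with a shared region at any distance. Of the 12 genes that use glutathione or thioredoxin 2 had a shared region, of the 10 for glutathione breakdown 3, of the 7 of the methionine cycle 1 and of the 6 for cysteine breakdown 1. None of the 5 regulators had one, a group that holds NFE2L2, KEAP1, ATF4 and MAFG, which had no summit in either list, and BACH1, which had 1 summit in replicate 2.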

How the data were processed

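Per the file headers, each of the 2 ChIP lists was made by the authors from a file of peak summits with annotatePeaks.pl of HOMER on hg38, 1 list per sample. The submitters' processing notes name FastQC 0.11.7, cutadapt 2.8, Bowtie2 2.3.5, SAMtools 1.9 and MACS2 2.1.2, without roles. The peak threshold and control are not given in the sources used here. The score was deposited by the authors per peak with no stated scale, so it was ranked only within its list. Distance to the TSS, nearest gene and annotation are the deposited ones. Read depth is unknown, and a longer list can come from more reads.

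Summits were paired when they were mutually nearest and within 200 bp, and replicate 1 gave the gene and distance of a pair. The pairing code was run on simulated summits whose planted shifts stayed inside the 200 bp limit. That checks the code and does not measure how well real peaks recur. Deposited gene names and gene identifiers selected the same rows for the 10 genes. Spans and promoters came from RefSeq tables of GRCh38.p14, and 19970 protein-coding genes on chromosomes 1 to 22 and X served as background. All 10 genes are described, with every shared region, and summits without a partner by position within 10 kb of a start and otherwise by their scores. The genes and lists were chosen with earlier results of these data known. Motifs around summits were planned but not run, because no genome was at hand. Python 3.11.15, pandas 2.3.3 and scipy 1.17.1 were used.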

Additional observations from a re-analysis of the deposited data

How the results depend on the processing

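Of 23 alternatives, 17 left the count within 1.5 times its value. With only scores at or above each list's median, 10 of 10 replicate 1 summits near the 10 genes had a partner. In replicate 2 it was 10 of 16, where the replicate 1 partner also had to reach the median of its list. With partners of any score, 4 of these replicate 2 summits lacked one. At that limit SLC7A11 was the 1 gene with a shared region within 10 kb. That gene count was also 1 within 1 kb and 6 within 100 kb, which follows from the distance. Genes with any shared region numbered 3 when the replicate 1 summit had to lie inside the gene span. Without replicate 1 or 2, genes with a summit within 10 kb numbered 2 in both cases and genes with a summit at any distance 6 to 7. Pairing within 50 bp gave 13 partnered summits and left GCLM with no shared region. Leaving out CBS was chosen after seeing the data. No paired analysis was possible because the results come from no test and no values of the input samples were used.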
